A study of Mus musculus with 80 samples.

Results

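The genes described here are 10 mouse genes of metal binding and of defence against reactive oxygen, namely Mt1, Mt2, Hmox1, Nqo1, Gclc, Gclm, Sod1, Sod2, Cat and Txnrd1. They were chosen by symbol from a table of 25899 genes, and all 10 were found there. Muscle stem cells (MuSCs) were sorted by their GFP from extraocular muscles (EOM, the muscles that move the eye) and from the tibialis anterior (TA, a limb muscle) of male Tg:Pax7-nGFP donors, a line in which regulatory sequence of Pax7 drives a nuclear GFP, on a C57BL/6;DBA2 F1/JRj background and aged 7 or 7.6 weeks by the labels. For each donor, 500 cells of each muscle made a pre-graft library, and other cells were injected into the TA muscles of a Rag2-/-;γC-/- host (C57BL/6J background), the EOM cells on one side and the TA cells on the other. Both host muscles had been injured with cardiotoxin the day before. These hosts lack T, B and NK cells and keep their own endothelium, fibroblasts and macrophages, which carry no GFP. GFP-positive cells were sorted again from the grafted muscles, at day 21 by the labels, and the few cells recovered from each muscle, 9 in the smallest sample, made the graft libraries used here. After the quality limits of the study, 8 EOM pre-graft, 8 TA pre-graft, 7 EOM graft and 7 TA graft libraries remained of 40, each from 1 donor mouse and in 2 experiments (Experiment 1 with 1 graft of each muscle). P-values measure the spread among these libraries.

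Levels are log2 RPM, the log2 of reads scaled to a common library total, as deposited. Reads on genes ran from 963432 to 4169357 per library. Mitochondrial reads took 2.91% to 8.16% of an EOM pre-graft library, 3.22% to 22.9% of a TA pre-graft library, 3.85% to 59.6% of an EOM graft and 5.45% to 46.8% of a TA graft. They are part of the total to which each level is scaled, so the level of every other gene in a graft was set partly by that share, and changes after grafting are therefore given on the deposited scale and again after each library was centred on the median of its tested genes. The 9 MuSC markers together (Pax7, Myf5, Cdh15 and others) reached 10452 to 18286 RPM in pre-graft libraries and 182 to 11575 RPM in grafts. The 8 endothelial markers reached 17.6 to 2068 RPM before and 195 to 5924 RPM after grafting, and the fibro-adipogenic markers 1954 to 4000 RPM and 879 to 11883 RPM. These sums lean on few genes. Of the MuSC markers Sdc4 had the highest median before grafting, 13.28 log2 RPM in EOM and 13.27 in TA cells, against 8.48 and 9.46 for Pax7. In TA cells before grafting Dpt and Col3a1 had median levels of 10.37 and 9.54 log2 RPM, and Pdgfra and Lum both -1.01. In EOM cells Tek had the highest endothelial median, 7.28. Of 7 fibro-adipogenic markers 4 were called higher and 2 lower in TA grafts, and 1 higher and 1 lower in EOM grafts. Myofibre markers reached 8.42 to 318 RPM before grafting and reached 24.5 to 1418 RPM after it, macrophage markers reached 2.87 to 699.6 RPM in grafts, and erythroid markers (haemoglobin genes and others) had medians of 0.941 RPM in EOM and 0.820 RPM in TA cells before grafting, with single libraries up to 4886 RPM, and of 2342 RPM in EOM grafts and 3.54 RPM in TA grafts. In sorted cells of this kind, fewer cells of a type and less RNA of that type per cell cannot be told apart.

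Metallothioneins are small cysteine-rich proteins that bind zinc and copper and buffer their free concentration. Their genes are switched on by zinc through the factor MTF1, which binds metal response elements (MREs) in their promoters, and also by glucocorticoids and by oxidants. The other genes of the set remove reactive oxygen or supply the reducing power for it. Hmox1, Nqo1, Gclc, Gclm and Txnrd1 are known targets of NRF2 (gene Nfe2l2), a factor held down by KEAP1 and countered at the same antioxidant response elements by BACH1. Metallothionein genes and Hmox1 are also known to be induced by cell stress.

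Mt1 (chr8:94179089-94180325) and Mt2 (chr8:94172618-94173567) lie on the same strand of chromosome 8 in GRCm38, 5521 bases apart with Mt2 first. Their promoter windows are shown because both genes were called higher in TA cells before grafting. Each window is 300 bases from RefSeq (GRCm38.p6, plus strand), with 250 bases before and 50 after the start of the gene. The capitals mark matches to the core of the metal response element, searched as TGCACNC or TGCGCNC on both strands.
Mt1, chr8:94178839-94179138: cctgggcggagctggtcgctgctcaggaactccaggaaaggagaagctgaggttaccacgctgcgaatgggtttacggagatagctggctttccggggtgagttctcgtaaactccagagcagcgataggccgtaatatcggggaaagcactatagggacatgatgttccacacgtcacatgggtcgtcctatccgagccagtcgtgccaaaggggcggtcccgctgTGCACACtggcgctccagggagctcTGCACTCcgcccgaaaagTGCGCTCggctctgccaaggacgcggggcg
Mt2, chr8:94172368-94172667: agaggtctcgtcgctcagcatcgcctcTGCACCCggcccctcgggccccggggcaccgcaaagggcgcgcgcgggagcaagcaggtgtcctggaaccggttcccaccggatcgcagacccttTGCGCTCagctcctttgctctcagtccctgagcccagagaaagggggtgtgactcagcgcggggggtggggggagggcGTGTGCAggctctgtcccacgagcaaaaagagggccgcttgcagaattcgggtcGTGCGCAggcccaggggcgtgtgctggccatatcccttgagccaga
The Mt1 window held 3 such cores, all on the sense strand and close to the start of the gene. The Mt2 window held 4, of which 2 were on the sense strand and 2 on the other, and they were spread over the window, that at base 255 lying after the start. Among 32817 promoter windows of this length, 25.7% held at least 1 core, 1.97% at least 3 and 0.518% at least 4. A window was found for 8 of the 10 genes (all but Hmox1 and Gclc). Outside the metallothioneins the core was found in the window of Gclm, with 3 matches. An antioxidant response element searched as TGACNNNGC on both strands, which 12.4% of all windows hold, was found once each in the windows of Mt2, Gclm and Sod1 and in 1 of the 3 windows of Txnrd1. In the Gclm window 1 of the MRE cores overlapped it. The windows of Nqo1, Sod2 and Cat held neither.

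Before grafting, TA MuSCs held more metallothionein and haem oxygenase transcripts than EOM MuSCs. Mt1, Mt2 and Hmox1, the enzyme that breaks down haem, were 3.21-fold, 2.45-fold and 3.48-fold higher in TA cells. Sod2, the superoxide dismutase of mitochondria, was the one gene of the set that stood lower in TA cells in every library, by less than the limit for a call. The other 6 genes were not called, and their log2 differences lay between -0.19 and 1.39.

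Mt1 stood at 9.35, 9.62 and 9.89 log2 RPM (lowest, median and highest of 8) in EOM pre-graft libraries and at 10.54, 11.13 and 12.61 in the 8 TA pre-graft libraries. Mt2 stood at 9.09, 9.69 and 10.04 in EOM and at 10.26, 10.59 and 11.95 in TA. For both genes the lowest TA library lay above the highest EOM library. The EOM libraries were close to each other, with the highest Mt1 level 1.46-fold above the lowest, while TA libraries spread over 4.18-fold. In log2 the TA minus EOM difference was 1.68 ± 0.23 (SE, adjusted p = 4.74e-05) for Mt1 and 1.30 ± 0.22 (adjusted p = 0.000388) for Mt2. It was positive in 7 of 7 donors with both libraries for each gene. Within Experiment 1 it was 1.93 for Mt1 and 1.60 for Mt2, and within Experiment 2 it was 1.64 and 1.25. Together the 2 genes took 0.0832% to 0.135% of the reads on genes in EOM cells and 0.196% to 0.684% in TA cells.

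Hmox1 (chr8:75093591-75100596) stood at 7.19, 7.91 and 9.51 log2 RPM in EOM and at 8.97, 9.83 and 11.01 in TA libraries before grafting. Its groups overlapped through 1 EOM library, mouse 2 of Experiment 2, at 9.51. That library also held 2187 RPM of macrophage markers, against 22.3 to 98.4 RPM in the other EOM libraries and 6.55 to 32.5 RPM in TA libraries, where C1qa, C1qb, Fcgr1 and Cd163 had no read. The same library held 2322 RPM of erythroid markers, against at most 1004 RPM in the other EOM pre-graft libraries. Macrophages are rich in haem oxygenase, but the part of either cell type in this Hmox1 level was not tested. The log2 difference was 1.80 ± 0.30 (SE, adjusted p = 0.000388) with that library and 2.01 (adjusted p = 4.16e-05) without it, and all 7 donors with both libraries were higher in TA. The EOM library of mouse 3 of Experiment 2 is not among them. It met the stated limits of the study but was listed there as an outlier in its group and left out. Its Hmox1 level was 10.31, above the 10.26 of the TA library of the same donor. Within each experiment the difference was 1.67.

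Mt1, Mt2 and Hmox1 were the 3 genes called of the 10, all higher in TA, where 1.26% of the 13217 genes tested were called higher and 3.31% lower (a call needs a Benjamini-Hochberg adjusted p of limma below 0.05 with at least a 2-fold difference). Groups that did not overlap were found for Mt1 and Mt2, against 0.477% of all genes higher in TA without overlap and 2.28% in either direction. The median log2 difference of the 10 genes was 0.30, beside -0.30 over all genes tested, and 6 of the 10 were positive. Centred on the library median, the differences were 1.92 for Mt1, 1.54 for Mt2 and 2.04 for Hmox1, and the same 3 genes were called. In a fit that took its spread from all 4 groups, grafts included, none of the 3 passed (adjusted p = 0.0917, 0.384 and 0.0571).

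Sod2 (chr17:13007839-13018119) stood at 8.23, 8.50 and 8.98 log2 RPM in EOM and at 7.38, 7.87 and 8.14 in TA before grafting, so that the highest TA library lay below the lowest EOM library. Genes lower in TA without overlap made up 1.81% of those tested. The log2 difference was -0.73 ± 0.14 (SE, adjusted p = 0.00222), TA lower in 7 of 7 donors, and -0.49 after centring (adjusted p = 0.0282), under the limit for a call on both scales. Sod1 (chr16:90220742-90226322), the dismutase of the cytosol, had medians of 9.75 in EOM and 9.69 in TA with overlapping ranges (adjusted p = 0.529). Catalase, Cat (chr2:103453849-103485160), which removes hydrogen peroxide in peroxisomes, had medians of 6.21 and 6.11 (adjusted p = 0.954). For these 2 genes the small difference changed sign between scales, from -0.19 to 0.05 for Sod1 and from -0.03 to 0.21 for Cat.

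Among the NRF2 targets other than Hmox1, the differences before grafting did not pass. Gclc (chr9:77754535-77794485) and Gclm (chr3:122245557-122269984) encode the catalytic and the modifier subunit of the enzyme that limits glutathione synthesis. Their log2 TA minus EOM differences were -0.12 ± 0.32 and 0.38 ± 0.19 (SE, adjusted p = 0.854 and 0.227), and that of Gclc was 0.12 after centring. Txnrd1 (chr10:82859206-82897724), the thioredoxin reductase of the cytosol, differed by 0.21 ± 0.14 (adjusted p = 0.369). Nqo1 (chr8:107388225-107403206), a quinone reductase, was near the floor of these libraries, with 0 to 14 reads in EOM and 0 to 19 in TA. It had no read in 3 EOM libraries and 1 TA library, which allows up to 3 reads in each, and a library without a read is listed at the value of 0.9 read. Its log2 difference of 1.39 ± 0.67 did not pass (adjusted p = 0.202).

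**Figure D1:**
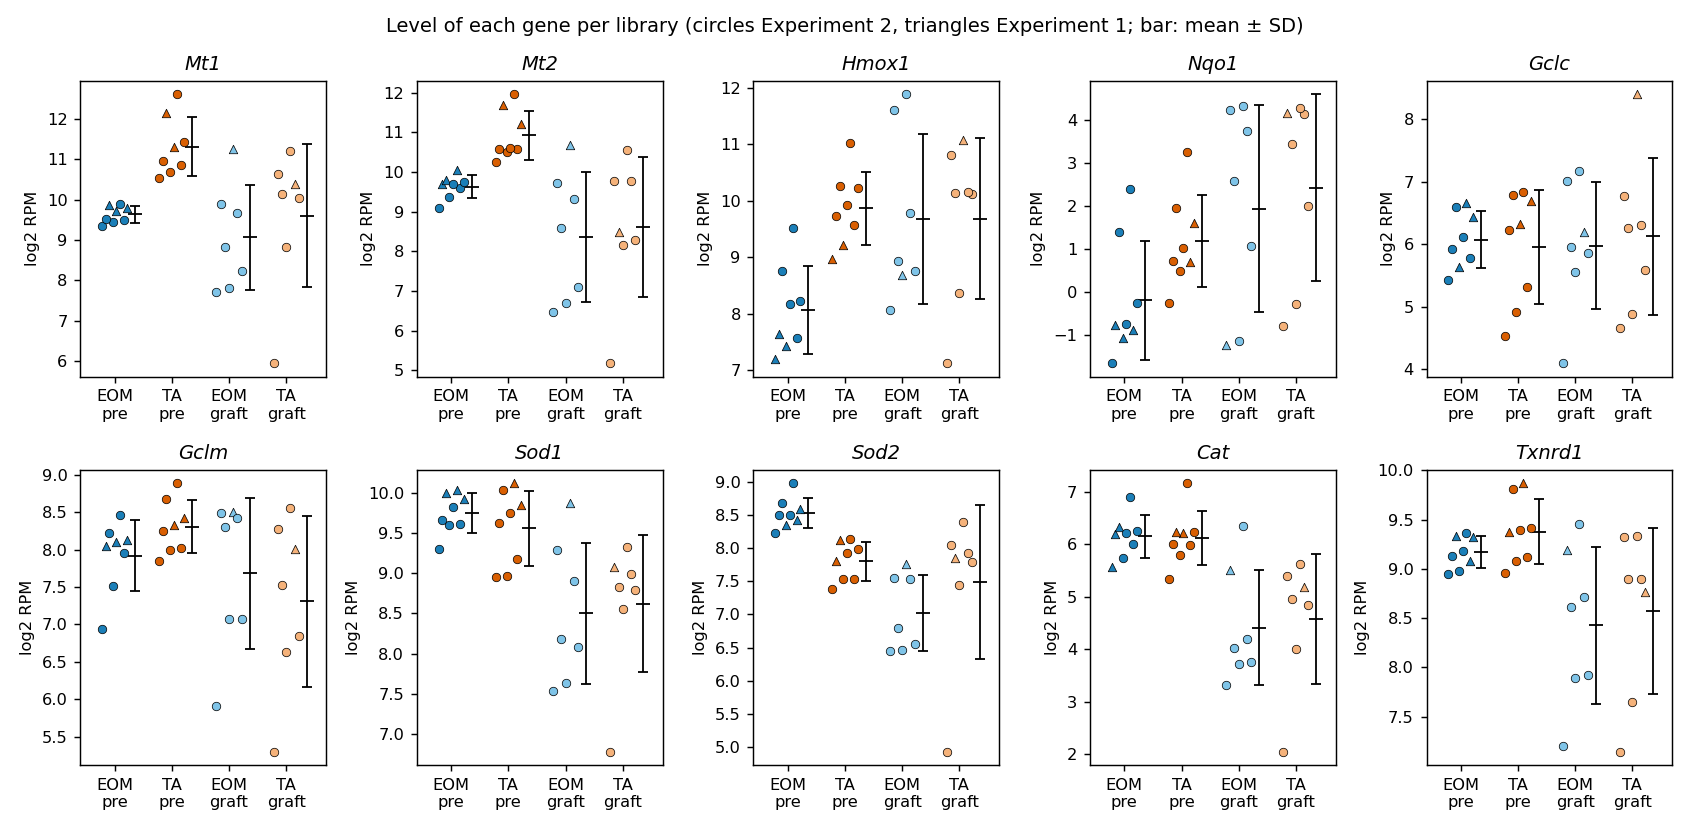
Level of each of the 10 genes in log2 RPM (vertical axes, which differ between panels) in EOM and TA libraries before grafting (8 each) and after (7 each), with 1 point per library, triangles for Experiment 1, circles for Experiment 2, and the mean ± SD beside each group. TA points lie above all EOM points before grafting for Mt1 and Mt2 and below them for Sod2, while the graft groups are wide and overlap for every gene.

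Per kilobase of annotated exon, Mt2 and Mt1 were the highest of the set in pre-graft cells of both muscles, with medians of 10.46 and 9.30 log2 RPM per kb in EOM and 11.36 and 10.81 in TA. The length used was that of all annotated exons of a gene merged, which can exceed that of the transcript expressed. It was 588 bases for Mt2, 1246 for Mt1, 1751 for Hmox1, 3970 for Sod1 and 10008 for Sod2. The order of genes in this paragraph therefore depends on the annotation. In EOM the ranges of Mt2 (9.86 to 10.80) and Mt1 (9.03 to 9.58) did not overlap, and in TA they did. Sod1 (7.76) and Hmox1 (7.10) came next in EOM, in that order, and Hmox1 (9.02) and Sod1 (7.70) in TA, where Hmox1 and Sod1 no longer overlapped. Txnrd1, Gclm, Sod2, Cat and Gclc followed with medians between 4.11 and 6.56 in either muscle, and Nqo1 was last, at -1.39 and 0.23. In grafts Mt1, Mt2 and Hmox1 held the 3 highest medians in both groups, with overlapping ranges, and Nqo1 remained last.

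In TA grafts 3 members were called lower than in TA pre-graft cells, where 30.9% of all genes were called lower and the median log2 change of all genes was -1.09. Mt2 was called 4.99-fold lower in TA grafts than in TA pre-graft cells, Mt1 3.29-fold and Cat 2.93-fold, and no gene of the set was called higher. Hmox1, Nqo1 and Gclc had log2 changes of -0.18, 1.24 and 0.17 that did not pass. Mt1 was not called after centring, with edgeR (-0.74, adjusted p = 0.230) or with DESeq2 (-0.66, adjusted p = 0.237), and Mt2 was not called with edgeR (adjusted p = 0.0548). The highest Mt1 level of these grafts was 38.7-fold above the lowest, which rests on 1 library (5.94 log2 RPM) while the next lowest was at 8.82 and the highest at 11.22.

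Mt2 stood at 5.17, 8.50 and 10.56 log2 RPM in the 7 TA grafts, against 10.26 to 11.95 before grafting, and 6 of the 7 grafts lay below the lowest pre-graft library. Mt1 stood at 5.94, 10.14 and 11.22, against 10.54 to 12.61, with 2 grafts inside the earlier range. The log2 changes were -2.32 ± 0.54 (SE, adjusted p = 0.00400) for Mt2 and -1.72 ± 0.56 (adjusted p = 0.0222) for Mt1, and each gene fell in 6 of 7 donors with both libraries. Cat stood at 2.04, 4.95 and 5.64 and changed by -1.55 ± 0.50 (adjusted p = 0.0214), and it too was lower in 6 of 7 donors. In the same comparison all 9 MuSC markers were called lower, and Pax7 itself changed by -3.07 (adjusted p = 0.000985).

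Calls took 34.7% of the 13076 genes tested, 30.9% lower and 3.79% higher, and 5.19% did not overlap between groups (4.97% lower), while those of all 10 members overlapped. The median log2 change of all genes was -1.09, beside -0.87 for the set. Centred on the library median, the calls over all genes split into 1003 higher and 743 lower, and of the set only Mt2 remained called, at -1.42 ± 0.37 (adjusted p = 0.0137). Mt1 was then -0.82 (adjusted p = 0.150) and Cat -0.66 (adjusted p = 0.204). Sod1 changed by -0.94 ± 0.36 (adjusted p = 0.0458), Gclm by -0.996 ± 0.40 (adjusted p = 0.0553) and Txnrd1 by -0.81 ± 0.35 (adjusted p = 0.0716) on the deposited scale, none called, and each was within 0.11 of 0 after centring. Sod2 changed by -0.32 on the deposited scale and 0.57 after centring, without a call on either. Within Experiment 1, with 1 graft, Hmox1 was higher by 1.99 and within Experiment 2 it was -0.67, while Mt1 and Mt2 were lower in both (-1.32 and -2.95, then -1.71 and -2.13). Over Experiment 2 alone, Mt1 and Cat lost their calls (adjusted p = 0.0652 and 0.0653) and Mt2 kept it (adjusted p = 0.0313).

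One TA graft, that of mouse 3 of Experiment 2 (16 cells, 46.8% mitochondrial reads, 182 RPM of MuSC markers), was the lowest of its group for 8 of the 10 genes, with 75 reads of Mt1 and 44 of Mt2. Without it Mt1 was -1.11 (adjusted p = 0.0250), Mt2 -1.75 (adjusted p = 0.00260) and Cat -1.13 (adjusted p = 0.0209), all 3 still called, and the change of Hmox1 (0.04) and of Sod2 (0.11) turned positive without a call.

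In cells of EOM origin, calls after grafting went both ways. Hmox1 and Nqo1 were called higher in EOM grafts than in EOM pre-graft cells, 3.05-fold and 4.43-fold, and Mt2, Sod1, Sod2 and Cat were called lower, by 2.38-fold to 3.35-fold. The median change of all genes in this comparison was -1.48, so the 4 lower genes lay near that median and Hmox1 and Nqo1 far above it. Mt1 changed by -0.57 ± 0.40 (SE, adjusted p = 0.213), and by 0.68 after centring (adjusted p = 0.0970).

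Hmox1 stood at 8.07, 8.94 and 11.88 log2 RPM in the 7 EOM grafts, against 7.19 to 9.51 before grafting. The 3 highest grafts were those of mice 1, 3 and 4 of Experiment 2, at 11.88, 11.60 and 9.78. They lay above every pre-graft library used, and the other 4 grafts lay inside the earlier range. The EOM pre-graft library of mouse 3 of Experiment 2, left out as an outlier, stood at 10.31. The log2 change was 1.61 ± 0.51 (SE, adjusted p = 0.0117), or 2.86 ± 0.54 (adjusted p = 0.00217) after centring, and 4 of 6 donors with both libraries were higher. With the donor as a block the change was 1.11 (adjusted p = 0.0890), and in Experiment 2 alone it was 1.39 (adjusted p = 0.0578).

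Endothelial markers moved with Hmox1 over the EOM grafts. The 3 named grafts held 5026, 3667 and 3055 RPM of endothelial markers, while the other 4 EOM grafts held 195 to 2442 RPM and pre-graft EOM cells 102 to 607 RPM. Of the 8 endothelial markers, 7 were called higher in EOM grafts. Erythroid markers stood at 2497, 2976 and 1329 RPM in the same 3 grafts, 2342 and 2904 RPM in those of mice 2 and 6 of Experiment 2, and at most 1.41 RPM in the other 2. Macrophage markers stood at 40.3, 27.1 and 2.87 RPM in the 3 named grafts and at 23.7 to 699.6 RPM in the other 4. The graft with 699.6 RPM had the lowest Hmox1 of the EOM grafts, 8.07. The part of these cell types in the Hmox1 level was not tested. In TA grafts the endothelial markers ran from 1026 to 5924 RPM. The TA graft with the most Hmox1 (11.08) held 5482 RPM, the one with the most markers had Hmox1 at 10.12, and one with 1050 RPM had it at 10.13. Before grafting 7 of the 8 markers had a positive TA minus EOM difference (median 2.99, 1 called higher and 1 lower). Their sum was 17.6 to 2068 RPM in TA libraries before grafting. The library with 17.6 RPM had Hmox1 at 10.26 and that with 2068 RPM at 9.73. The TA pre-graft library with the most Hmox1 (11.01) held 213 RPM.

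Nqo1 had 23, 20 and 33 reads in the same 3 EOM grafts (mice 1, 3 and 4), 7 and 4 reads in 2 more and none in the remaining 2. Its levels were -1.24, 2.58 and 4.33 log2 RPM (lowest, median and highest), against -1.67 to 2.40 in the pre-graft libraries used. The EOM pre-graft library of mouse 3 of Experiment 2, left out as an outlier, had 28 reads of Nqo1 and stood at 3.62. The log2 change was 2.15 ± 0.92 (SE, adjusted p = 0.0475) and 3.40 after centring (adjusted p = 0.0329). The call was lost when any of 11 of the 15 libraries was left out, with the donor as a block (adjusted p = 0.164) and in Experiment 2 alone (adjusted p = 0.0809). In Experiment 1, with 1 graft, it was -0.32.

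Sod2 fell in every EOM graft, from 8.23 to 8.98 before grafting to 6.45, 6.80 and 7.76 (lowest, median and highest), without overlap and in 6 of 6 donors. Its log2 change was -1.52 ± 0.27 (SE, adjusted p = 0.000421). Sod1 changed by -1.25 ± 0.31 (adjusted p = 0.00350) and Cat by -1.74 ± 0.44 (adjusted p = 0.00371), each lower in 6 of 6 donors with groups that overlapped. Mt2 changed by -1.26 ± 0.50 (adjusted p = 0.0332), lower in 4 of 6 donors. With the donor as a block Mt2 was no longer called (-0.85, adjusted p = 0.139), nor without the EOM graft of mouse 3 (-0.95, adjusted p = 0.0889), 4 (-0.98, adjusted p = 0.0820) or 6 (-1.05, adjusted p = 0.0796) of Experiment 2 or the EOM pre-graft library of mouse 5 of Experiment 1 (adjusted p = 0.0538). The 1 graft of Experiment 1 was higher in Mt2 than its pre-graft group, by 0.83, and those of Experiment 2 were lower, at -1.52.

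Of all 13094 genes tested, 59.3% were called, 55.8% lower and 3.51% higher in EOM grafts, and 11.3% did not overlap between groups (11.1% lower and 0.176% higher), so the 4 lower members of 10, with 1 of them not overlapping, were near or under the background. On the deposited scale 7 of the 10 had an unadjusted p under 0.05 (limma), beside 67.8% of all genes tested. Centred on the library median, the calls over all genes split into 871 higher and 634 lower. Those of the set split into 4 higher and 0 lower (limma, and edgeR and DESeq2 also called 0 lower). The 4 were Hmox1, Nqo1, Gclc (1.16 ± 0.36, adjusted p = 0.0390) and Gclm (1.01 ± 0.31, adjusted p = 0.0348). On the deposited scale Gclc and Gclm changed by -0.09 and -0.24 without a call, so their direction depended on the scale. Sod1, Sod2 and Cat were then at -0.00084, -0.27 and -0.49, none of which passed. Txnrd1 was -0.74 (adjusted p = 0.0350) before centring and 0.51 (adjusted p = 0.202) after it.

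**Figure D2:**
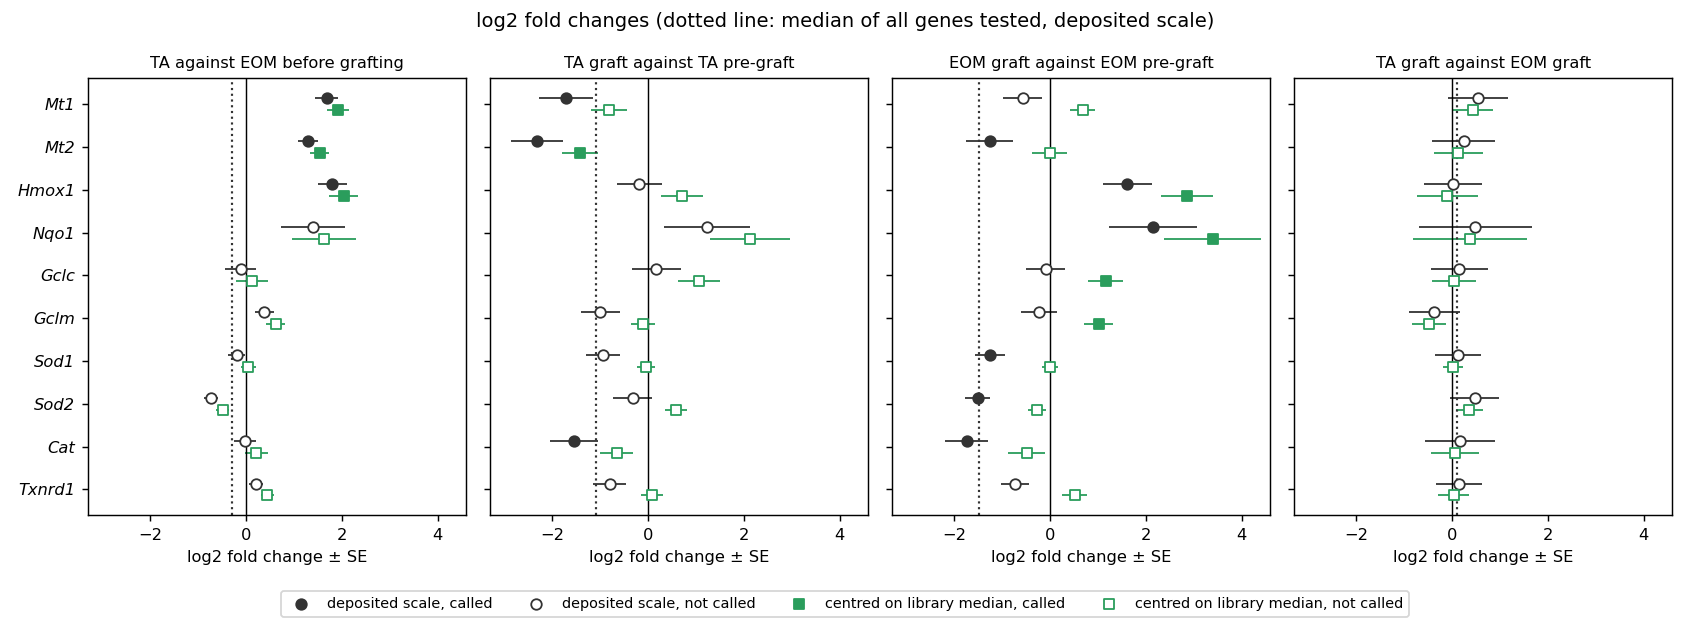
Log2 fold change ± SE (horizontal axis) of the 10 genes in 4 comparisons, as circles on the deposited scale and squares after centring each library on its median, filled where the change was called, with a dotted line at the median change of all genes tested (-0.30, -1.09, -1.48 and 0.09 from left to right). Before grafting both scales call Mt1, Mt2 and Hmox1, after grafting the lower calls of Sod1, Sod2 and Cat in EOM cells lie near the dotted line, and no gene is called between the grafts.

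Between the grafts, the differences seen before grafting were not detected. For all 10 genes the TA and EOM graft ranges overlapped, and the log2 differences ran from -0.37 to 0.54 with SEs of 0.48 to 1.18 (limma, 0 of 10 called, and 0 of 10 with an unadjusted p under 0.05). Mt1 differed by 0.54 ± 0.62, Mt2 by 0.24 ± 0.66 and Hmox1 by 0.01 ± 0.61. Before grafting the SEs of these 3 were 0.23, 0.22 and 0.30. Of all 12377 genes tested, 0 were called by limma and by edgeR and 3 by DESeq2, with 452 at an unadjusted p under 0.05, and 0.0162% did not overlap between groups, all of them higher in TA. Within Experiment 1, with 1 graft on each side, Mt2 differed by -2.18 and Hmox1 by 2.39, and within Experiment 2 by 0.64 and -0.39.

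Whether the change after grafting differed between EOM and TA cells was tested as the difference of the 2 changes, which shares all its libraries with the comparisons above. No member passed (limma, 0.208% of the 14428 genes called, 0.0554% higher and 0.152% lower, and edgeR and DESeq2 called no member either). Hmox1 and Sod2 had an unadjusted p under 0.05 (limma), as did 7.22% of all genes tested. The EOM change exceeded the TA change by 1.79 ± 0.73 for Hmox1 (adjusted p = 0.581), 1.14 ± 0.73 for Mt1 (adjusted p = 0.774) and 1.06 ± 0.78 for Mt2 (adjusted p = 0.818). For Sod2 the value was -1.195 ± 0.49 (adjusted p = 0.599), the EOM change being the lower one. Without the TA graft of mouse 3 of Experiment 2 the Sod2 value was -1.62 (adjusted p = 0.0169) and passed. After centring it was -0.78 (adjusted p = 0.488).

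The proportion of Mt1 to Mt2 differed between groups by a test over libraries, and less clearly over donors. The log2 difference of Mt1 and Mt2 within a library does not depend on how libraries are scaled. It was 0.01 ± 0.22 (mean ± SD, n = 8) in EOM cells before grafting, where the pair was at parity per read, and 0.39 ± 0.25 (n = 8) in TA cells. It rose to 0.70 ± 0.47 (n = 7) in EOM grafts and 1.00 ± 0.59 (n = 7) in TA grafts, where Mt1 gave on average 2.00-fold as many reads as Mt2. By exact two-sided permutation tests over libraries, adjusted over the 4 comparisons, TA and EOM differed before grafting (0.39, p = 0.0118), and so did grafts from pre-graft cells in TA (0.60, p = 0.0182) and in EOM (0.69, p = 0.00995). The grafts did not pass against each other (0.30, p = 0.309), and groups overlapped in every case. In an exact sign-flip test over donors with both libraries the unadjusted p was 0.0625 before grafting, 0.0313 in TA and 0.0938 in EOM, and in Experiment 2 alone the change in TA was 0.41 (exact permutation p = 0.0693). This measure was chosen after the levels of the pair had been seen.

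**Figure D3:**
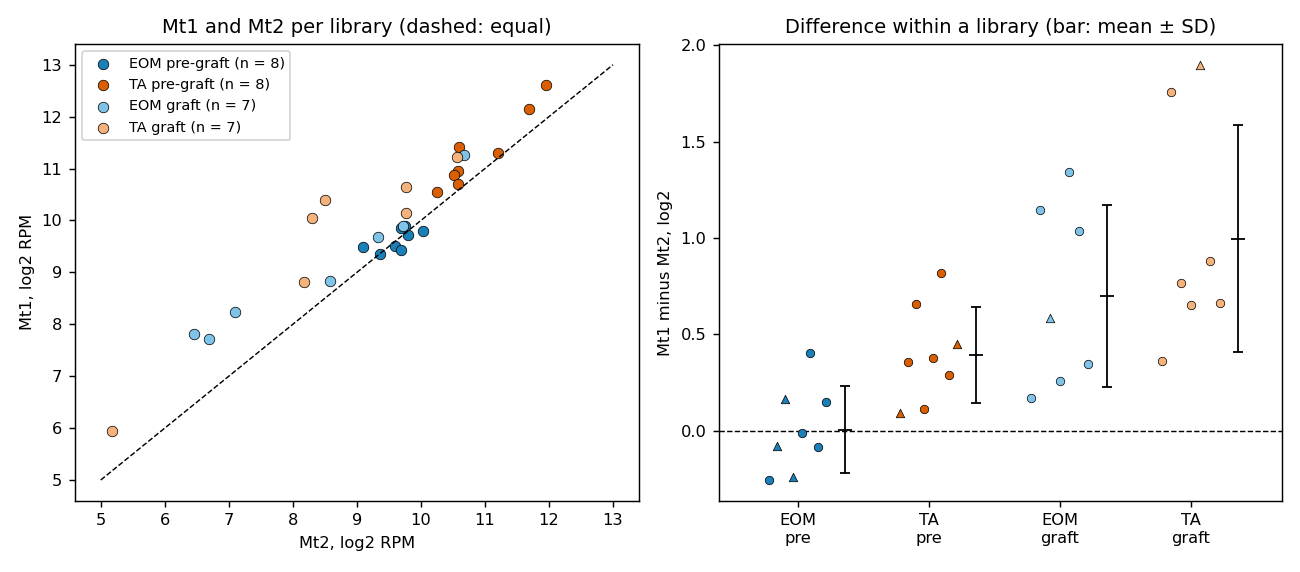
Left, Mt1 against Mt2 in log2 RPM, 1 point per library and coloured by group, with a dashed line at equal levels. Right, the log2 difference Mt1 minus Mt2 within each library by group (triangles Experiment 1, circles Experiment 2), with mean ± SD, which runs from 0.01 in EOM pre-graft cells to 1.00 in TA grafts.

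Mt1 and Mt2 share no stretch of 75 bases, the read length, in their annotated transcripts, so that their reads can be told apart. Of the 75-base stretches of Mt2, 30.2% are also in its antisense gene Gm45774, which has no row in the table, and the strand of a read was not used here. For Sod2 16.2% of stretches occur in other genes too, for Gclm 3.50% and for Sod1 1.71%, and for the other 6 genes 0.

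The genes most like the metallothioneins in their level over all 30 libraries, centred on the library median, were looked up among 14428 genes. For Mt1 they included Mt2 (Pearson r = 0.869) and Gm12744 (0.786). For Mt2 they were Pax7 (0.876), Mt1 (0.869) and Errfi1 (0.852), an inhibitor of EGF receptor signalling. The libraries share 4 groups with different means, so these values describe the pattern over groups as much as that within them. Pax7 was, like Mt2, higher in TA cells before grafting (log2 1.15 ± 0.22, adjusted p = 0.00153) and lower after grafting. The 3 grafts with the least Mt2 in EOM (6.46, 6.69 and 7.10) held 1088, 1203 and 2666 RPM of MuSC markers, and the graft with the most (10.68) held 11575 RPM. In TA grafts the least (5.17) went with 182 RPM and the most (10.56) with 8344 RPM. The share of MuSCs among the sorted cells in these levels was not tested.

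**Figure D4:**
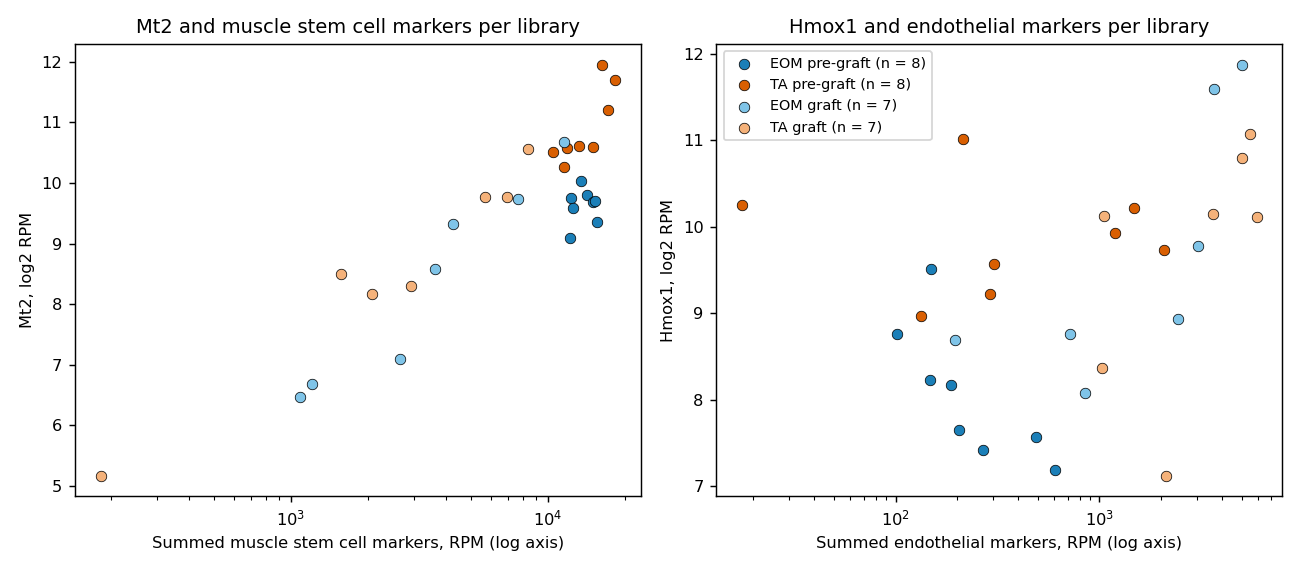
Level in log2 RPM of Mt2 against the summed level of the 9 MuSC markers (left) and of Hmox1 against that of the 8 endothelial markers (right), both sums in RPM on a log axis, 1 point per library and coloured by group. Among the MuSC markers Sdc4 has the highest median in every group. Grafts with few MuSC markers, down to 182 RPM, are those with low Mt2, and the 2 EOM grafts with the most Hmox1 (11.88 and 11.60) are also the 2 with the most endothelial markers.

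In the wider pathways few genes were called before grafting, where 4.56% of all genes tested were called. Of 9 other metal handling genes tested, 0 were called in either direction (limma), and the metal sensor Mtf1 differed by -0.38 ± 0.24 (SE, adjusted p = 0.327). Of 20 glutathione genes 1 was called, Mgst1 (a membrane glutathione transferase), with a log2 difference of -1.29 (adjusted p = 0.00287). None of the 13 thioredoxin and peroxiredoxin genes, 10 genes of NRF2 regulation, 7 of NADPH supply and 9 of haem and iron were called on the deposited scale. After centring 1 gene of NRF2 regulation was called higher in TA. Nfe2l2 differed by -0.05 ± 0.24 (adjusted p = 0.910), Keap1 by -0.42 ± 0.33 (adjusted p = 0.443) and Bach1 by -0.61 ± 0.19 (adjusted p = 0.0480, under the limit of size). Of 5 superoxide genes tested 1 was called, the extracellular dismutase Sod3, at -1.14 (adjusted p = 0.0353), and 0 were called after centring.

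Genes known to respond to tissue dissociation lay on the same side as the metallothioneins and Hmox1. All 12 on that list had positive TA minus EOM differences before grafting, 3 were called higher (5 after centring), and the median was 0.69 beside -0.30 over all genes. Nr4a1 differed by 1.35 ± 0.15 (SE, adjusted p = 4.19e-06), the heat shock gene Hspa1a by 1.02 ± 0.20 (adjusted p = 0.00184) and Fos by 1.00 ± 0.20 (adjusted p = 0.00237). Their summed level was 12316 to 20838 RPM in EOM and 18942 to 36165 RPM in TA cells. In TA grafts 9 of the 12 were called lower (5 after centring) and in EOM grafts 7 (0 after centring), beside 30.9% and 55.8% of all genes called lower. Of 8 glucocorticoid-induced genes, Fkbp5 was called higher in TA (1.35 ± 0.34, adjusted p = 0.0144) and Pdk4 lower (-1.04 ± 0.20, adjusted p = 0.00169). After centring 0 genes of this list were called lower. The part of dissociation or of steroid signals in the metallothionein levels was not tested.

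After grafting, most called genes of these pathways were lower on the deposited scale, and few after centring. The counts in TA grafts stand beside 30.9% of all genes called lower. In TA grafts 3 of 8 metal handling genes were lower, among them the zinc importer Slc39a14 (-2.56 ± 0.63, adjusted p = 0.00525). Of 20 glutathione genes 8 were lower and 1 higher, Gpx1 (1.25 ± 0.36, adjusted p = 0.0119), the common glutathione peroxidase, which reached 2.14 after centring. Gpx7 (-3.56), Gpx3 (-2.53) and Gstm1 (-2.44) were lower and stayed called after centring. Thioredoxin and peroxiredoxin genes gave 10 lower calls of 13, and 1 after centring (the methionine sulfoxide reductase Msra). Nfe2l2 changed by 0.19 (adjusted p = 0.730), or by 1.09 after centring (adjusted p = 0.0298), and Keap1 by -2.83 (adjusted p = 0.0124), or -1.93 (adjusted p = 0.0931). Mtf1 (-0.99) and Bach1 (-0.47) did not pass. Lower calls also went to 2 of 7 NADPH genes, 4 of 9 haem and iron genes, 2 of 5 superoxide genes and 3 of 8 glucocorticoid-induced genes.

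In EOM grafts 3 of 9 metal handling genes, 11 of 20 glutathione genes, 11 of 13 thioredoxin and peroxiredoxin genes and 6 of 10 NRF2 regulators were called lower and 0 higher, against 55.8% lower over all genes, as were 3 of 7 NADPH genes, 5 of 9 haem and iron genes, 3 of 5 superoxide genes and 2 of 8 glucocorticoid-induced genes. After centring the lower calls of the metal handling, glutathione, thioredoxin and peroxiredoxin, and NRF2 regulation lists came down to 2. These were Gsta4 (-3.28, adjusted p = 0.0110), a glutathione transferase for lipid aldehydes, and Txnrd2 (-2.75, adjusted p = 0.0105), the thioredoxin reductase of mitochondria. Of the glucocorticoid-induced genes 1 was called lower after centring. Gpx1 (1.96, adjusted p = 0.00048) and Gpx8 (1.04, adjusted p = 0.0467) were then higher. Ftl1, the light chain of the iron store ferritin, was also higher after centring (1.06, adjusted p = 0.00253). Bach1 (-1.26) and Keap1 (-1.52) were called lower on the deposited scale only, and Nfe2l2 (-0.39) and Mtf1 (-0.86) did not pass there. Between the 2 grafts none of the genes on these lists was called (limma; 0 of all genes tested).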

How the data were processed

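RNA of sorted cells was measured by G&T-seq, which separates the RNA and the DNA of one sample (the DNA libraries were not used here). The authors trimmed reads with Trim Galore 0.4.4, mapped them to GRCm38 with HISAT2 2.1.0 and deposited log2 RPM per gene from SeqMonk. They also deposited the total read count of each library and, as percent of reads, the shares that fell on genes, on exons, on rRNA and on the mitochondrial genome. The 25965 rows gave 25899 genes after the row with the most reads was kept for each repeated symbol. Of the 40 libraries, 10 that failed the quality limits of the study were left out, and for 1 library the listed verdict and the stated limits differed and the verdict was used. Whole reads were recovered from the log2 values: 99.9886% of values were whole within 0.01 read, and a gene without a read is listed at 0.9 read. Reads on genes ran from 963432 to 4169357 per library. Nqo1 was near the floor of 3 reads, and Cat came close to it in 1 TA graft (mouse 3 of Experiment 2), with 5 reads.

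Groups were taken from the labels. limma 3.58.1 (R 4.3.3) with a variance trend was fitted to the deposited log2 RPM for each comparison over its own groups, and over all 4 for the difference of changes, on genes above log2 RPM 1 in at least 4 libraries, with Benjamini-Hochberg adjustment over all genes tested. Calls needed an adjusted p under 0.05 with a log2 change above 1 in size. edgeR 4.0.16 and DESeq2 1.42.0 on the recovered reads, other filters, scalings, a pseudocount of 1 RPM, experiment as covariate, a donor block and leaving out each library were alternatives. The Mt1 minus Mt2 difference and its alternatives were added after seeing the data. Same-numbered libraries come from the same donor mouse, and the median correlation of their deviations was 0.07, 0.01, -0.04 and 0.04 in the 4 comparisons (7, 7, 6 and 6 pairs). The fits were tested on simulated data.

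The members and the lists (MuSC, macrophage, endothelial, fibro-adipogenic, myofibre and erythroid markers, and the pathway lists) were chosen with earlier results of these data known. From each pathway list, called genes were named, at most 4 per list and comparison by size of change, with Mtf1, Nfe2l2, Keap1 and Bach1. Gpx8 and Ftl1, and the values after centring, were added after their values were seen. Counts of lists leave out members below the filter. Of the 3 genes most like Mt1 in level, 1 is not reported here.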

Additional observations from a re-analysis of the deposited data

Results flagged for a closer look

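In TA grafts Sod1 had 1 library far below the others, at 6.77 log2 RPM, with a gap to the next library of 0.700 of the whole range of the group, against 0.568 as the Dixon limit for 7 libraries. Sod2 in TA grafts had the same library far below, at 4.92 log2 RPM, with a gap of 0.728 of the range. Both values belong to mouse 3 of Experiment 2. Of the 40 groups examined (10 genes in 4 groups) 2 stood out in this way, and chance gives about 1 in 20.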

How the results depend on the processing

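The higher calls of Mt1, Mt2 and Hmox1 before grafting held under every alternative tried but 1 fit over all 4 groups, where 0 members were called. In TA grafts the 3 lower calls became 2 without mitochondrial genes (Cat lost), 1 in Experiment 2 alone, 1 after centring, 1 with DESeq2 and 0 with edgeR, and DESeq2 called 2 higher (Nqo1 and Gclc). In EOM grafts the 2 higher calls became 1 with log2 of RPM plus 1, without a filter, with a stricter filter, with experiment as a covariate or with the failed libraries, 0 with the replicate block or in Experiment 2 alone, and 4 after centring or with DESeq2. The 4 lower calls there became 0 after centring, without mitochondrial genes, with edgeR and with DESeq2. The replicate block pairs the libraries of a donor mouse and ended the calls of Hmox1, Nqo1 and Mt2 in EOM grafts, and no other call of a member. Leaving out single libraries gave 3 to 5 lower calls in TA grafts (Sod1 gained in 5 cases and Gclm in 3), 1 to 2 higher calls in EOM grafts and 0 to 1 lower for the difference of changes. The causes were not tested. Few reads limit the values of Nqo1, which had 0 to 39 reads per library.

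With RPM scaled without mitochondrial genes, the log2 fold change took the other sign before grafting Gclc (0.0482) and Cat (0.14), in TA grafts Hmox1 (0.41) and Sod2 (0.27), in EOM grafts Mt1 (0.31), Gclc (0.78), Gclm (0.64) and Txnrd1 (0.14), between grafts Hmox1 (-0.11) and Sod1 (-0.00125), for the difference of changes Gclc (0.0239) and Cat (0.0932). With libraries centred on their median, the log2 fold change took the other sign before grafting Gclc (0.12), Sod1 (0.0507) and Cat (0.21), in TA grafts Hmox1 (0.71), Sod2 (0.57) and Txnrd1 (0.0894), in EOM grafts Mt1 (0.68), Gclc (1.16), Gclm (1.01) and Txnrd1 (0.51), between grafts Hmox1 (-0.10), for the difference of changes Gclc (0.15), Sod1 (0.10) and Cat (0.22). With edgeR, the log2 fold change took the other sign before grafting Gclc (0.26), Sod1 (0.0598) and Cat (0.24), in TA grafts Hmox1 (0.82), Sod2 (0.59) and Txnrd1 (0.0556), in EOM grafts Mt1 (0.71), Mt2 (0.18), Gclc (1.11), Gclm (0.99) and Txnrd1 (0.51), between grafts Hmox1 (-0.50) and Nqo1 (-0.30), for the difference of changes Cat (0.22). With DESeq2, the log2 fold change took the other sign before grafting Gclc (0.26), Sod1 (0.0679) and Cat (0.24), in TA grafts Hmox1 (0.94), Gclm (0.0117), Sod2 (0.70) and Txnrd1 (0.17), in EOM grafts Mt1 (0.78), Mt2 (0.25), Gclc (1.22), Gclm (1.10) and Txnrd1 (0.64), between grafts Hmox1 (-0.53), Nqo1 (-0.34) and Cat (-0.0183), for the difference of changes Gclc (0.0123), Sod1 (0.00300) and Cat (0.24). With the donor as replicate block, the log2 fold change took the other sign in EOM grafts Gclc (0.0676), between grafts Hmox1 (-0.39), Nqo1 (-0.34) and Gclc (-0.19), for the difference of changes Txnrd1 (-0.39). In Experiment 2 alone, the log2 fold change took the other sign in TA grafts Gclc (-0.0249), between grafts Hmox1 (-0.39), Nqo1 (-0.34) and Gclc (-0.19), for the difference of changes Txnrd1 (-0.0651). With the libraries included that failed the quality limits, the log2 fold change took the other sign in TA grafts Hmox1 (0.0404) and Gclc (-0.000392), between grafts Hmox1 (-0.19), Gclc (-0.40), Cat (-0.50) and Txnrd1 (-0.10). Leaving out 1 library at a time turned the sign of values near 0, which then ran before grafting from -0.24 to 0.0876 for Gclc and from -0.18 to 0.0839 for Cat, in TA grafts from -0.41 to 0.25 for Hmox1, from -0.21 to 0.41 for Gclc and from -0.47 to 0.11 for Sod2, in EOM grafts from -0.29 to 0.22 for Gclc and from -0.38 to 0.0551 for Gclm, between grafts from -0.0859 to 0.81 for Mt2, from -0.26 to 0.44 for Hmox1, from -0.0497 to 1.02 for Nqo1, from -0.23 to 0.39 for Gclc, from -0.0399 to 0.43 for Sod1, from -0.0170 to 0.59 for Cat and from -0.0614 to 0.38 for Txnrd1, for the difference of changes from -0.51 to 0.12 for Gclc and from -0.17 to 0.27 for Txnrd1. Of the log2 fold changes under alternatives other than leaving out a library, 472 kept their direction and their side of the threshold, 74 changed sign (5 of them with a call under the alternative, all for Gclc or Gclm in EOM grafts), 39 lost their call and 2 gained one without a change of sign.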
